A study of Mus musculus with 8 samples.

Results

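Kruppel-like factors are DNA-binding proteins that sit at decision points of the intestinal crypt, and the 8 family genes Klf2, Klf3, Klf4, Klf5, Klf6, Klf9, Klf10 and Klf13 are described here in crypts of the small intestine (SI) and the colon (COL). They were chosen by symbol, matched through Ensembl gene identifiers in both deposited count tables, and make up 8 of 45706 genes in the files and 8 of the 17 mouse Klf genes. Crypt RNA was sequenced from 4 wild type C57BL/6N mice, donor mice 1, 2, 3 and 5, each giving 1 SI and 1 COL library. Mice 1 and 5 were female, and mice 2 and 3 were male. All groups lacked any transgene, oncogene or treatment, and the ages of the mice are not given in the sources used here. The comparison asks how SI and COL crypts differ before any oncogene is switched on. It comes from a study of oncogenic BRAF in intestinal organoids, which also compared the basal activity of the ERK pathway in both organs.

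The libraries are whole crypt preparations released from the tissue by EDTA chelation, not sorted cells, so each value is a mixture over all cells in the preparation. The paper's crypt protocol, given for organoid cultures, differed by organ. For SI it took the proximal part and scraped off the villi, and the colon was held longer in more concentrated EDTA. Isolation and organ therefore cannot be told apart in any comparison of SI with COL. Total counts ran from 15969428 to 32908060 per library. Mitochondrial transcripts took 4.83% to 50.8% of the counts. Their share was above 20% in 4 libraries (SI2, SI3, COL1 and COL2) and below 10% in the other 4, so each result is also given within these sets where it turns. Epithelial genes were abundant in every library, with a summed level of 7886 to 12256 reads scaled to library depth (CPM) in SI and 4305 to 12859 CPM in COL for 8 markers. All 7 absorptive cell genes of the small intestine were called higher in SI, and their summed level was 37677 to 70912 CPM there against 314 to 1096 CPM in COL. Of 10 goblet cell genes 6 were called higher in COL and none higher in SI, while in the libraries of low mitochondrial share alone 6 were higher in COL and 2 (Fcgbp and Tff3, named after their values were seen) higher in SI. None of 10 proliferation genes was called by edgeR's test, with 2 at an unadjusted p under 0.05 and 1 called each by DESeq2 and limma-voom.

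Each Kruppel-like factor binds GC-rich or CACCC-containing DNA through zinc fingers near the end of the protein, and the family differs mainly in the rest of the protein, which recruits activators or repressors. In the gut, Klf4 is known from differentiating cells of the upper crypt and from goblet cells, and Klf5 from dividing cells lower down, and both have often been described as opposed factors. Klf6 responds early to injury and growth signals. Klf9 responds to glucocorticoid and thyroid hormones, Klf10 to TGF-beta, and Klf3 represses genes together with CtBP proteins.

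Promoters of members are shown first because members can bind the promoters of other members and their own. RefSeq starts on build GRCm38.p6 matched 6 of the 8 genes: Klf2, Klf3, Klf4, Klf6, Klf9 and Klf13. The 4 printed here are the gene that passed the test between the organs (Klf2), the pair with the highest levels (Klf4 and Klf6) and the gene with the largest difference among the well-measured ones next to Klf6 (Klf9). Each is the 250 bases before the RefSeq start, written 5′ to 3′ on the gene's strand. Capitals mark on either strand the motif CACCC, the motif CCAAT and MEF2-type sites. The gene positions given further below come from another annotation, GENCODE. For Klf2 and Klf6 those genes begin inside the printed stretch, so its last bases lie within the annotated gene. Klf2 lies at chr8:72318812-72319061 (plus strand), Klf4 at chr4:55532476-55532725 (minus strand), Klf6 at chr13:5861239-5861488 (plus strand) and Klf9 at chr19:23140976-23141225 (plus strand).
Klf2: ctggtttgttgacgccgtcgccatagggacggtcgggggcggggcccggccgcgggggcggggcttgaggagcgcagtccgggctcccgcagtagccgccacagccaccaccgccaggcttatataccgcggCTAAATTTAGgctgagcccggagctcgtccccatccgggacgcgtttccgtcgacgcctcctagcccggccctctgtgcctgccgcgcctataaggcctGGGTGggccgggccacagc
Klf4: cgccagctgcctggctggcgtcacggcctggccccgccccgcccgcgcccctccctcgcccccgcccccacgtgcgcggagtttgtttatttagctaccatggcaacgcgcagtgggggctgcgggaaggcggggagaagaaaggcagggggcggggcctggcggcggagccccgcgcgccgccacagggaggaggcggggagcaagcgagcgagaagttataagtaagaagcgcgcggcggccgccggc
Klf6: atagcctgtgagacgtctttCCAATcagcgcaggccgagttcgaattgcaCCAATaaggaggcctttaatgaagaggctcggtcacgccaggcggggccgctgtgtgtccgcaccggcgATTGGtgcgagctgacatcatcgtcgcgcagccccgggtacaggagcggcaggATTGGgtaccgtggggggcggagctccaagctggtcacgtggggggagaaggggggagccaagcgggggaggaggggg
Klf9: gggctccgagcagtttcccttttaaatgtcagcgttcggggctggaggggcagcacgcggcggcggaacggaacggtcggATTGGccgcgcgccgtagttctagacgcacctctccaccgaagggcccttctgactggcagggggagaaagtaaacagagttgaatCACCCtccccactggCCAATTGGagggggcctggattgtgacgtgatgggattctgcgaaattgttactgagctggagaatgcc

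The Klf2 promoter held a MEF2-type match that began at position -118 from the start, and 2.92% of 32851 mouse promoters held one. It also held 1 CACCC match, a motif found in 52.0% of all promoters. That match, at position -19, lies past the GENCODE start of Klf2. Klf6 held 4 CCAAT matches and no CACCC, and Klf9 held 3 CCAAT matches, of which 2 overlapped each other on opposite strands, and 1 CACCC match. The CCAAT motif occurred in 33.8% of all promoters. Klf4 held none of the 3 marked motifs and was the richest of the 4 in G and C at 74.0%, against 71.2% for Klf2, 64.8% for Klf6, 59.6% for Klf9 and a median of 52.4% over all promoters. GGGCGG, which is not capitalised, was found in 5 of the 6 members and in 32.7% of all promoters. Of the printed promoters, Klf4 held 4 matches of GGGCGG, Klf2 2, Klf6 1 and Klf9 0. A CArG box, searched for on both strands, was found in none of the 6 and in 1.47% of all promoters. Matches of different motifs overlapped in 1 place in Klf3 and 1 place in Klf13, and in none of the printed promoters. These are matches of letters and were not tested as binding sites.

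In SI against COL crypts, 1 of the 8 genes passed the test, Klf2, which was higher in COL. Klf2 had 1 read in all SI libraries together and passed the filter on low counts only through its COL libraries. Klf5 and Klf9 were also lower in every SI library than in every COL library, and each of the 4 mice had more Klf6 in SI, but these 3 genes fell just short of the threshold of an adjusted p of 0.05 in edgeR's quasi-likelihood test. DESeq2 called all 3 (adjusted p = 0.0101 for Klf5, 0.0191 for Klf9 and 0.0303 for Klf6), and limma-voom called Klf5 (0.0414) and Klf9 (0.0384). Klf3, Klf4, Klf10 and Klf13 overlapped between the organs. Over all 14491 genes tested, 28.4% were called, 15.5% higher in SI and 12.9% higher in COL. The 12.5% of the 8 genes called by edgeR is below its share of all genes. Other settings called up to 4 of the 8, but no share of all genes was worked out for them. Whether those counts lie above or below such a share is therefore not known. Library totals alone called 4 members, all higher in COL. That scaling also shifted the 14491 genes as a whole toward COL, with their median going from -0.09 to -0.82. The median log2 fold change of the 8 genes was -0.21 (SI over COL), beside -0.09 for all genes. In whole crypts, fewer cells of a type and less RNA per cell cannot be told apart, and this holds for each difference below.

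**Figure D1:**
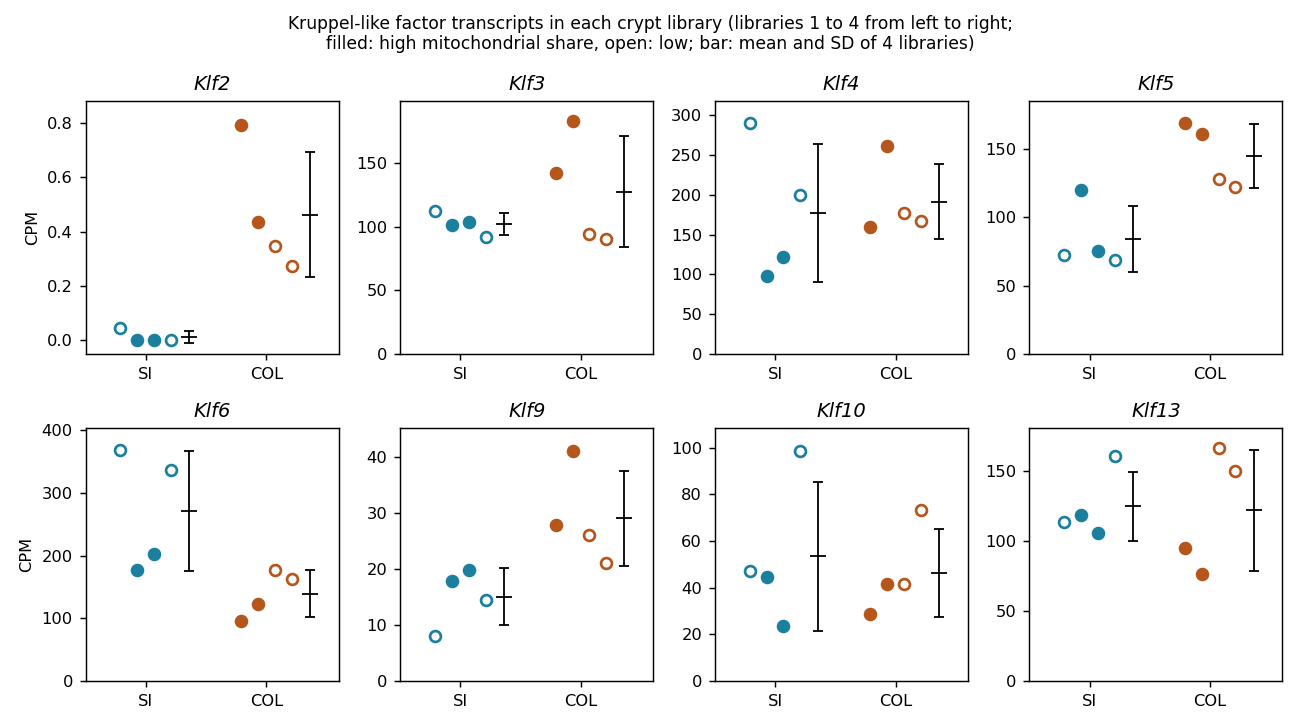
Normalised CPM (vertical axis, linear, a separate scale for each gene) of the 8 Kruppel-like factors in the 4 SI and 4 COL libraries, with the mean and SD of 4 libraries as black bars. Filled points are libraries with over 20% mitochondrial counts. The groups are apart for Klf2, Klf5 and Klf9, touch for Klf6 (176.43 CPM in SI2 and 176.94 CPM in COL3) and overlap for the others.

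Klf2 (ENSMUSG00000055148, GRCm38 chr8:72319033-72321656, plus strand) encodes a factor best known from endothelium under flow and from resting T cells. It was barely detected. SI1 held 1 read and SI2, SI3 and SI4 held 0, while COL1 held 27, COL2 7, COL3 13 and COL4 13. The total was 1 read in SI and 60 in COL, a normalised ratio of COL over SI of 35.6, with an exact 95% interval of 6.14 to 1428 that covers counting error only. edgeR gave an adjusted p of 0.00669, and the gene passed the filter on low counts only through its COL libraries. Klf2 was at 0.462 ± 0.230 CPM in COL (SD, n = 4), and 90.4% of genes were above it there. All 4 mice had the lower value in SI. In the libraries of low mitochondrial share alone the call was lost (adjusted p = 0.0615), and in those of high share the gene missed the filter.

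Klf2 is carried by other cell types of the gut wall, so their markers are given beside it. Of 6 endothelial markers 3 could be tested, and Pecam1, an adhesion molecule of endothelium, named after its values were seen, was called higher in COL (log2 fold change -2.69, SE 0.79, adjusted p = 0.0248 by edgeR). Pecam1 had 2 to 19 reads in SI and 42 to 106 in COL, so it passed the filter on low counts through its COL libraries. Its call was lost without SI3, SI4 or COL2, with an adjusted p of up to 0.0668. The other 2 tested went opposite ways and did not pass, Vwf at -2.73 (adjusted p = 0.0963 by edgeR) and Tek at 2.81 on the log2 scale (adjusted p = 0.142). Vwf was called by DESeq2, by limma-voom and with the mice as blocks. The summed level of the 6 was 0.137 to 5.98 CPM in SI and 3.34 to 11.3 CPM in COL, so the organs overlapped. Cdh5, the defining endothelial cadherin, named likewise, did not pass the filter, with at most 6 reads in any SI library and at most 6 in any COL library. The 6 lymphocyte markers that could be tested went the other way from Klf2, with 3 called higher in SI. With the mice as blocks 6 of the 6 were called, and with library totals alone 0. The summed level of all 7 in the list was 48.6 to 151 CPM in SI against 13.5 to 50.3 CPM in COL. Cd2, a T cell marker named likewise, missed the filter, with 0 to 3 reads in SI and 3 to 68 in COL. Of 5 known KLF2 targets in lymphocytes and endothelium only Itgb7, an integrin chain of gut lymphocytes, could be tested, and it was called higher in SI (log2 fold change 1.97, adjusted p = 0.0339 by edgeR). It lost the call when any of SI1, SI2, COL1, COL2 or COL3 was left out (adjusted p up to 0.0982) and under scaling by library totals alone (0.165). The part of these cells in the Klf2 reads was not tested.

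Klf4 (ENSMUSG00000003032, chr4:55527143-55532466, minus strand), a factor of epithelial differentiation, had close means in both organs and a wide spread in SI. It stood at 290 CPM in SI1, 98.2 in SI2, 122 in SI3 and 200.1 in SI4, and at 159.9 CPM in COL1, 261 in COL2, 177 in COL3 and 168 in COL4. SI1 exceeded every COL library, while SI2 and SI3 lay below all of them. Mean levels were 178 ± 86.8 CPM for SI and 191 ± 46.9 CPM for COL (SD, n = 4). The log2 fold change was -0.11 (SE 0.38, 95% interval -0.93 to 0.72), with an adjusted p of 0.861 by edgeR. The sign depended on the libraries: between those with a high mitochondrial share the difference in mean log2 CPM was -0.90, and between those with a low share it was 0.49.

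Klf5 (ENSMUSG00000005148, chr14:99298691-99315036, plus strand), the factor of dividing crypt cells, was at 72.8, 120, 75.7 and 68.7 CPM in SI1 to SI4 and at 169, 161, 128 and 122 CPM in COL1 to COL4. The highest SI library, SI2, lay just under the lowest COL library, and the other 3 SI libraries lay well below. The SI mean was 84.3 ± 23.9 CPM and the COL mean 145 ± 23.5 CPM (SD, n = 4), or 1.72-fold more in COL by the fit. The log2 fold change was -0.78 (SE 0.28, 95% interval -1.41 to -0.16), and its adjusted p was 0.0586 by edgeR. Without SI2, the adjusted p was 0.0302 and the log2 fold change -0.98. The difference was of like size between libraries of high mitochondrial share (-0.79 on the log2 scale) and of low share (-0.82). Proliferation genes moved in the same direction by their median (log2 fold change -0.64 over 10 genes, none called), and their part in the Klf5 values was not tested.

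Klf6 (ENSMUSG00000000078, chr13:5861482-5870394, plus strand), an early response factor, was the member with the highest SI over COL ratio. It reached 368 CPM in SI1, 176 in SI2, 203 in SI3 and 337 in SI4, against 95.1 in COL1, 124 in COL2, 177 in COL3 and 162 in COL4. Only SI2 and COL3 met, and in every mouse the SI library was above its own COL library. The means were 271 ± 95.3 CPM and 139 ± 37.1 CPM (SD, n = 4), a 1.94-fold difference by the fit. The log2 fold change was 0.96 (SE 0.35, 95% interval 0.19 to 1.73), with an adjusted p of 0.0612 by edgeR. SI2 again mattered, since without it the adjusted p was 0.0427. Within each organ, Klf6 was lower in the libraries of high mitochondrial share (SI2 and SI3, COL1 and COL2) than in the others. The log2 difference of SI over COL was 1.95 in mouse 1, where only the COL library had a high share. It was 0.20 in mouse 3, where only the SI library had one. The part of this share in the Klf6 values was not tested. The difference of SI over COL was 0.80 between libraries of high mitochondrial share and 1.05 between those of low share. When libraries were scaled by their total alone, it shrank to 0.20, while the median of all genes moved from -0.09 to -0.82.

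Klf9 (ENSMUSG00000033863, chr19:23141226-23168134, plus strand), a hormone-responsive factor, was the least abundant member next to Klf2. It was at 8.06, 17.9, 19.8 and 14.6 CPM in SI1 to SI4 and at 27.9, 41.1, 26.1 and 21.1 CPM in COL1 to COL4. No SI library reached the lowest COL library, and the groups were separated by a narrow gap between SI3 and COL4. The SI mean was 15.1 ± 5.14 CPM and the COL mean 29.1 ± 8.53 CPM (SD, n = 4), or 1.93-fold more in COL by the fit. The log2 fold change was -0.95 (SE 0.33, 95% interval -1.67 to -0.22), and the adjusted p of 0.0513 by edgeR lay just above the threshold. Once pairs from 1 mouse were blocked, the adjusted p was 0.0466, which passed, and 2 members (Klf2 and Klf9) were then called in place of 1. The difference was -0.85 between libraries of high mitochondrial share and -1.11 between those of low share. In all, 3 of the 8 genes did not overlap between SI and COL, Klf2, Klf5 and Klf9, while 33.5% of all genes tested did not.

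Klf3, Klf10 and Klf13 overlapped between the organs. Klf3 (ENSMUSG00000029178, chr5:64803388-64832901, plus strand), a repressor, was even in SI, at 91.7 to 112 CPM, and ranged from 90.5 to 183 CPM in COL, where COL1 and COL2 were the highest. Its log2 fold change was -0.32 (SE 0.29, 95% interval -0.97 to 0.33, adjusted p = 0.454 by edgeR), and it was -0.66 between libraries of high mitochondrial share and 0.13 between those of low share. Scaled by library totals alone it was -1.03, and Klf3 was then called higher in COL (adjusted p = 0.0176). Of its exon bases 3.59% overlap Gm20033 on the other strand, and no strand setting is given, so reads there could be shared.

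Klf10 (ENSMUSG00000037465, chr15:38291463-38300706, minus strand), a TGF-beta-inducible gene, was at 47.2, 44.5, 23.5 and 98.6 CPM in SI1 to SI4 and at 28.7, 41.8, 41.8 and 73.1 CPM in COL1 to COL4. Mouse 5 had the highest value in each organ, and the log2 fold change was 0.21 (SE 0.42, 95% interval -0.73 to 1.14, adjusted p = 0.758 by edgeR). Klf13 (ENSMUSG00000052040, chr7:63886351-63938915, minus strand), known as an activator of chemokine genes in T cells, was at 114, 119, 106 and 161 CPM in SI1 to SI4 and at 95.3, 76.4, 167 and 150 CPM in COL1 to COL4. COL held both its lowest and its highest libraries, and the log2 fold change was 0.03 (SE 0.32, 95% interval -0.66 to 0.73, adjusted p = 0.951 by edgeR). Scaled by library totals alone, the log2 fold changes became -0.56 for Klf10 and -0.74 for Klf13, so their signs rest on the scaling.

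**Figure D2:**
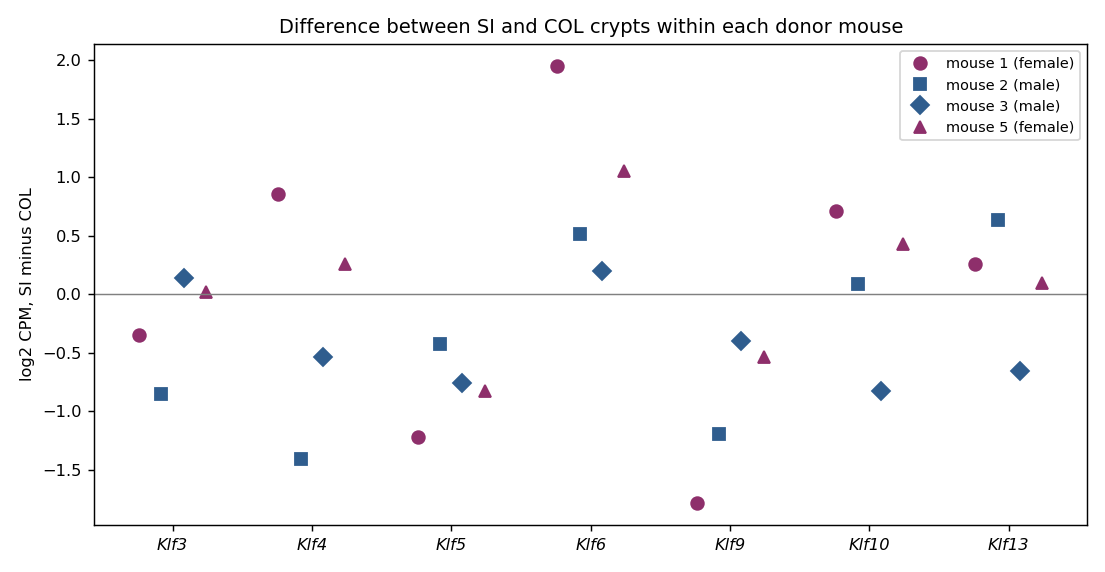
Difference in log2 CPM between the SI and the COL library of each donor mouse (vertical axis) for 7 members, with Klf2 left out for its low counts. All 4 mice are above 0 for Klf6 and below 0 for Klf5 and Klf9, and for Klf4 the females are above 0 and the males below.

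Among the 8 members, Klf4 had the widest range of differences between mice. Its log2 difference between SI and COL was 0.86 in mouse 1 and 0.26 in mouse 5, both female, and -1.41 in mouse 2 and -0.54 in mouse 3, both male. The difference between the sexes was -1.58 on the log2 scale (male minus female, SE 0.64), with an unadjusted p of 0.0340 and an adjusted p of 0.909 by edgeR's interaction test. Of all genes tested 0.0% were called in that test by edgeR, 761 had an unadjusted p under 0.05, DESeq2 called 11 and limma-voom 0. No member was called by any of the 3 tools. In SI, the male libraries were also those of high mitochondrial share, so sex and that share cannot be told apart there. For Klf6 the difference between the sexes was -1.12 (SE 0.67, adjusted p = 0.915 by edgeR), with all 4 mice higher in SI.

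Levels between genes were compared as CPM per kilobase of exon. In SI the order was Klf6 (61.7 ± 21.7 CPM per kilobase), Klf4 (58.2 ± 28.5), Klf13 (16.6 ± 3.29), Klf5 (16.2 ± 4.59), Klf10 (12.8 ± 7.64), Klf3 (9.09 ± 0.756), Klf9 (3.13 ± 1.07) and Klf2 at 0.00613 CPM per kilobase (mean ± SD, n = 4). Neighbours in that order overlapped except at 3 steps, below Klf4, below Klf3 and below Klf9. In COL it was Klf4 (62.7 ± 15.4), Klf6 (31.8 ± 8.46), Klf5 (27.9 ± 4.51), Klf13 (16.2 ± 5.73), Klf3 (11.3 ± 3.89), Klf10 (11.1 ± 4.51), Klf9 (6.03 ± 1.77) and Klf2 (0.25 ± 0.125). There Klf4 stood above Klf6, Klf5 above Klf13 and Klf9 above Klf2 without overlap. Klf4 was exceeded by 6.68% of 14441 genes in SI and by 3.91% in COL, and Klf6 by 6.45% and 7.19%. The 8 genes held 94.9% to 97.8% of the summed CPM per kilobase of all 17 Klf genes. With the length of the longest transcript in place of all exons, Klf5 came above Klf6 in COL (43.3 against 33.0 CPM per kilobase) and above Klf13 in SI. Klf3, with 5221 bases in place of 11243, came above Klf13 in both organs and above Klf10 in SI. The ranks between these genes therefore depend on the transcript used.

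**Figure D3:**
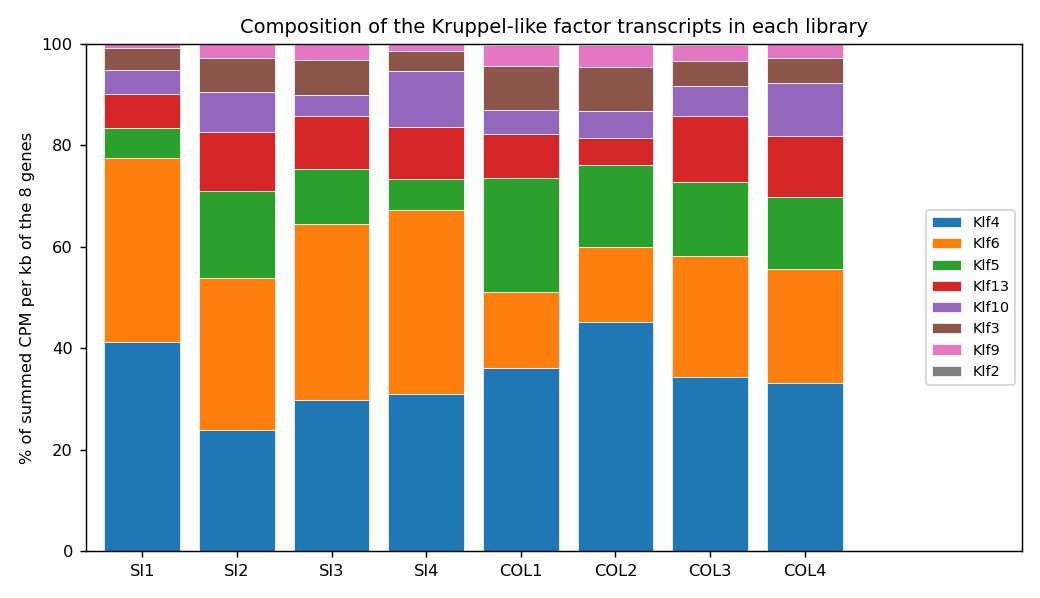
Share of each member in the summed CPM per kilobase of the 8 genes (vertical axis, percent) in each library (horizontal axis). The Klf6 segment is 29.9% to 36.3% in the SI libraries and 14.8% to 23.8% in the COL libraries, and the Klf4 segment overlaps between the organs.

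Shares within a library do not depend on scaling between libraries. Klf6 made up 34.2% ± 3.01 of the members' summed level in the SI libraries and 19.0% ± 4.78 in the COL libraries (SD, n = 4), with no overlap. Klf5 made up 10.1% ± 5.20 in SI and 16.9% ± 3.82 in COL, and SI2 at 17.1% lay within the COL range. Klf4 made up 31.5% ± 7.17 and 37.2% ± 5.40. The log2 ratio of Klf4 to Klf5, the pair often set against each other in the crypt, averaged 1.75 ± 1.01 over the SI libraries and 1.15 ± 0.33 over the COL libraries (SD, n = 4), with a range of 0.48 to 2.76 in SI that took in the COL range of 0.69 to 1.47. With the longest transcript as length it averaged 1.13 and 0.53, and Klf5 exceeded Klf4 in SI2 (-0.14). The log2 ratio of Klf6 to Klf5, looked at after the values of both were known, was 0.80 to 2.58 in SI and -0.59 to 0.71 in COL. These shares and ratios are descriptions and were not tested.

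Among the other 9 Klf genes, 5 could be tested and 2 were called, in opposite directions. Klf12, a repressor like Klf3, had 0 to 4 reads in SI and 39 to 79 in COL (log2 fold change -4.71, SE 1.04, adjusted p = 0.00515 by edgeR). Klf15, a regulator of amino acid and glucose metabolism, was at 1.45 to 5.02 CPM in SI and 0.186 to 0.763 CPM in COL (log2 fold change 2.63, SE 0.66, adjusted p = 0.0114 by edgeR). Klf12 passed the filter on low counts only through its COL libraries, and neither gene had 10 reads in every library, so under that minimum no call was left. With library totals alone Klf15 was not called (adjusted p = 0.0504), and 3 genes, Klf7, Klf11 and Klf12, were called, each higher in COL. Klf7 (-0.68), Klf11 (-0.96) and Klf16 (0.57) did not pass the TMM-scaled test, and 39.3% of the exon bases of Klf7 overlap Gm26649 on the other strand. Klf1, Klf8, Klf14 and Klf17 stayed under the filter.

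The Sp factors share the zinc fingers of the family. Sp5, a target of Wnt signalling, was at 1.93 to 4.31 CPM in SI and at most 0.235 CPM in COL (log2 fold change 5.12, SE 1.00, adjusted p = 0.00251 by edgeR). With 32 to 85 reads in SI and 0 to 8 in COL, it passed the filter only through its SI libraries, and a minimum of 10 reads in every library left no Sp gene called. Sp1, Sp2, Sp3 and Sp4 had log2 fold changes of 0.19, 0.48, 0.07 and 0.83 and did not pass, and Sp6 to Sp9 stayed under the filter. So 1 of 5 tested Sp genes was called.

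**Figure D4:**
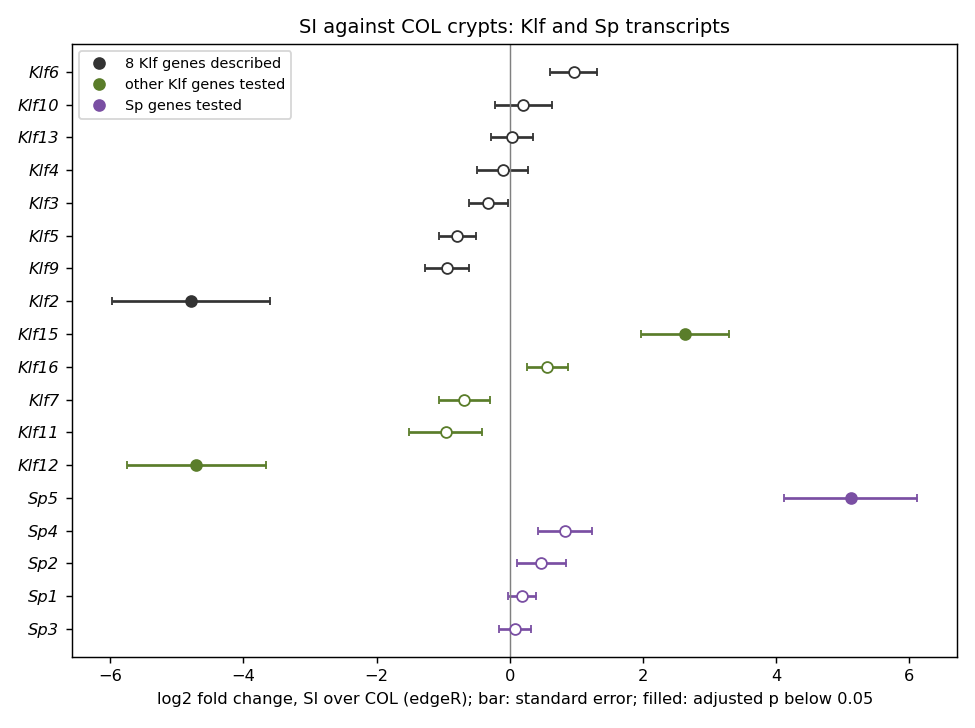
edgeR log2 fold change of SI over COL (horizontal axis) with its standard error for the 8 members, the other 5 Klf genes tested and the 5 Sp genes tested. Filled points passed an adjusted p of 0.05: Klf2 and Klf12 lie far to the COL side at -4.78 and -4.71, where the fitted size rests on few SI reads, and Klf15 and Sp5 lie to the SI side.

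Enzymes that tag Kruppel-like factors for breakdown were called in both directions, 2 of 9 higher in SI and 2 higher in COL. Itch, a ubiquitin ligase known to act on Klf10, was at 101 to 156 CPM in SI and 36.6 to 46.2 CPM in COL (log2 fold change 1.68, adjusted p = 0.000537 by edgeR). Smurf2, a ligase known for Klf5, was also higher in SI (0.94, adjusted p = 0.0144). Wwp1, another ligase of Klf5 and of Klf2, was higher in COL (-1.11, adjusted p = 0.0318), as was Fbxo32, a ligase subunit known for Klf4 (-2.37, adjusted p = 0.00914). The Wwp1 call was lost without SI1, SI4, COL1 or COL2 (adjusted p up to 0.0799), and Smurf2 fell to 0.19 on the log2 scale with library totals alone (adjusted p = 0.622). None of 10 corepressors and coactivators, among them the CtBP, Sin3 and p300 genes, passed edgeR's test. Of these, 3 had an unadjusted p under 0.05, DESeq2 called 1, limma-voom 0, and edgeR scaled by library totals alone 6.

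Upstream of Klf2 and Klf4 lies the kinase chain from MEKK2 through MEK5 and ERK5 to the MEF2 factors. Map3k2, which encodes MEKK2, was at 26.2 to 38.1 CPM in SI and 8.75 to 16.3 CPM in COL (log2 fold change 1.43, SE 0.28, adjusted p = 0.00280 by edgeR). It was the 1 gene called of 6 tested in that list. With library totals alone 4 were called, 1 higher in SI and 3 higher in COL. Klf2, with 1 read in all SI libraries together, was higher in COL. A link between this chain and the Klf2 or Klf4 values was not tested.

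Klf4, Klf6 and Klf10 are often counted with the immediate early genes, which are also known to rise while tissue is taken apart. Of 16 such genes tested 3 were called higher in SI and 1 higher in COL, with a median log2 fold change of 0.43. With library totals alone the calls were 3 on the SI side and 5 on the COL side, and in the libraries of low mitochondrial share 6 and 2. Socs3, a feedback inhibitor of cytokine signalling, was at 8.06 to 25.9 CPM in SI and 1.47 to 3.99 CPM in COL (2.74, adjusted p = 0.00132 by edgeR), and Zfp36, which promotes decay of mRNAs, at 220 to 439 CPM and 23.7 to 82.3 CPM (2.73, adjusted p = 0.000902). Nr4a1, a nuclear receptor of the same early class, was lower in SI (-4.48, adjusted p = 0.000591 by edgeR). It had 1 to 17 reads in SI and 46 to 547 in COL, so it passed the filter on low counts through its COL libraries. It could not be called under a minimum of 10 reads in every library. The summed level of the list was 531 to 1218 CPM in SI and 279 to 388 CPM in COL. Because isolation differed by organ, its part in the Klf6 values cannot be told apart from organ and was not tested.

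Genes that respond to glucocorticoids, as Klf9 does, were split. Tsc22d3 (log2 fold change 2.67, adjusted p = 0.000667 by edgeR) and Sgk1 (1.85, adjusted p = 0.0429) were higher in SI, whereas Fkbp5 (-3.53, adjusted p = 3.00e-05), Mt2 (-2.45, adjusted p = 0.000795) and Mt1, another metallothionein named after its values were seen (-1.60, adjusted p = 0.0171, lost without SI1 or COL3), were higher in COL, with 9 tested. Fkbp5, a chaperone of the glucocorticoid receptor, was at 2.31 to 5.68 CPM in SI and 36.4 to 44.4 CPM in COL, so it shared its direction with Klf9, and Tsc22d3 did not. The Sgk1 call was lost when any library but SI3 or COL4 was left out (adjusted p up to 0.152). TGF-beta genes, set beside Klf10, were split as well, 2 of 9 higher in SI and 2 higher in COL. Skil, a SMAD corepressor (2.33, adjusted p = 0.00127), and Smad4, the shared SMAD (0.81, adjusted p = 0.0398), were higher in SI. Smad4 kept its call only when SI3 or COL2 was the library left out (adjusted p otherwise up to 0.102), and with library totals alone its log2 fold change was 0.10. The receptor Tgfbr2 (-2.25, adjusted p = 0.000438) and the corepressor Tgif1 (-1.75, adjusted p = 0.00357) were higher in COL. Over all lists, 53 of 156 genes tested were called by edgeR, beside 28.4% of all genes. Of the 53, 31 were on the SI side and 22 on the COL side, and with library totals alone the calls became 23 and 52.

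The genes whose pattern over the 8 libraries was nearest to a member were found by the root mean square difference of centred log2 CPM, among genes with a mean log2 CPM of at least 3. Klf5 was nearest to Pias2 (0.0721), Tcf4 (0.117) and Cep63 (0.171), and Klf6 to Arfgap3 (0.0982), Syf2 (0.110) and Pigg (0.116). Klf9 was nearest to Esrp2 (0.116), an epithelial splicing factor, then Nfia (0.145) and Tmem63b (0.152). For comparison, the SD of log2 CPM over the libraries was 0.48 for Klf5, 0.62 for Klf6 and 0.65 for Klf9. The neighbours were picked as the nearest in these same libraries, so their closeness is a description and no test.

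The nearest genes of the others were Otud5 (0.102), Armc5 (0.103) and Rgp1 (0.116) for Klf3, and Cops7b (0.126), Kdsr (0.127) and Ccng1 (0.135) for Klf13. For Klf4 they were Atg2a (0.206), Nudt4 (0.216) and Fam83f (0.227), and for Klf10 Ints9 (0.297), F2rl1 (0.305) and Arhgap1 (0.334). Klf2 was nearest to Bspry (0.289), S100a13 (0.304) and Cdx1 (0.382), a homeobox gene of the gut, on a scale where its own reads are nearly absent in SI. The 3 neighbours of Klf4 and of Klf10 were each farther away than any of Klf5 or Klf6.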

How the data were processed

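RNA of crypts from 4 SI and 4 COL samples, 1 of each from every mouse, was sequenced on Illumina instruments. The deposited values are raw read counts per Ensembl gene, which the authors made after trimming (Trimmomatic 0.36) and alignment and counting (STAR 2.5.2b) per the labels and methods. The strand setting and annotation release are not given in the sources used here, and both mm9 and mm10 are named, the methods giving mm10. Symbols came from GENCODE on GRCm38, and 563 of 45706 genes had no match.

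Counts were tested with edgeR 4.0.16 (quasi-likelihood, TMM scaling, filterByExpr, R 4.3.3) and adjusted by Benjamini-Hochberg over 14491 genes. No 2 libraries of an organ agreed within sampling noise. CPM are TMM-normalised, and levels between genes were divided by exon length. Fold changes are SI over COL. Total counts of 15969428 to 32908060 set the precision, and intervals on reads cover counting error only. Numbers pair libraries because they come from the same mouse: deviations of the organs correlated by -0.24, 0.39, -0.08 and 0.33 in mice 1, 2, 3 and 5. The alternatives were library totals alone, DESeq2 1.42.0, limma-voom (limma 3.58.1), donor block, other filters, the mitochondrial share as covariate and each library left out. Fits within high or low mitochondrial share were added after seeing the data. The fits were tested on simulated data that varied less between libraries than these data and held no effect of mouse. That run therefore does not give the error rate at the spread of these data. Up to 2 genes per direction and list were named, by size of change where the mean log2 CPM reached 1, and for each member the 3 nearest genes. Members and lists were chosen with earlier results of these data known. Promoters are RefSeq, GRCm38.p6.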

Additional observations from a re-analysis of the deposited data

Results flagged for a closer look

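In each of 16 groups, 1 gene in 1 organ, the sample at either end was compared with its nearest neighbour, relative to the range of the group. Chance alone flags about 1 in 20 such groups. Klf2 in SI1 stood apart at 0.0453 CPM, which is a single read against none in the other SI libraries. A group with reads in only 1 library is always flagged, so the rate of 1 in 20 does not apply to it. Klf4 in COL2, the library with 50.8% mitochondrial counts, stood apart from the other COL libraries at 261 CPM. Klf5 in SI2, where 28.3% of counts were mitochondrial, stood apart from the other SI libraries at 120 CPM. The part of the mitochondrial share in these values was not tested.

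For Klf4, both female mice were higher in SI and both male mice were higher in COL, and the fitted difference between the sexes was -1.58 on the log2 scale (male minus female). The interaction test of edgeR gave an adjusted p of 0.909, so this difference failed the correction.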

How the results depend on the processing

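The edgeR test called 1 of the 8 members, beside 28.4% of all genes. The share of all genes was worked out for this test only, so the counts below have no such share beside them. Library totals alone called 4 (Klf2, Klf3, Klf5 and Klf9), DESeq2 and the mitochondrial share as covariate 4 each (Klf2, Klf5, Klf6 and Klf9), limma-voom 3 (Klf2, Klf5 and Klf9), no filter 2 (Klf2 and Klf9) and a minimum of 10 counts in every library 2 (Klf5 and Klf9). With the donor mouse as replicate block, edgeR and limma-voom each called 2, Klf2 and Klf9, so the block added Klf9 in edgeR and ended the call of Klf5 in limma-voom (adjusted p 0.0414 without it and 0.0515 with it). Libraries of low mitochondrial share alone gave 2 calls, Klf5 and Klf6 but not Klf2, and those of high share 0. Leaving out 1 library gave 0 to 3 calls. Without COL3, Klf2 missed the filter and no member was called. Without SI2, Klf5 and Klf6 were called beside Klf2, and without COL4 Klf9 was. Klf2 could also not be tested under the 10-count minimum or in the high share libraries. Klf5, Klf6 and Klf9 kept their direction throughout, with ranges of -0.98 to -0.70, 0.79 to 1.13 and -1.08 to -0.72 when 1 library was left out. The range of Klf2 was -4.92 to -4.37, not counting the fit without SI1, which leaves no SI read and so no size. Klf3 ranged from -0.44 to -0.10, and library totals alone gave -1.03.

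The direction turned for genes near 0. Library totals alone gave -0.56 for Klf10 and -0.74 for Klf13. High share libraries gave -0.125 for Klf10, low share libraries 0.13 for Klf3, 0.50 for Klf4 and -0.21 for Klf13. Klf13 was -0.030 with no filter, -0.070 with the 10-count minimum and -0.044 with the covariate. Leaving out 1 library moved Klf4 from -0.43 to 0.11, Klf10 from -0.28 to 0.53 and Klf13 from -0.12 to 0.22. The cause was not tested. List genes called were 46 to 75 under the planned settings against 53, and 47 to 57 with 1 library left out. No member was called in the sex test under any setting (0 throughout). With the longest transcript as length, 8 of 16 places in the order of levels stayed the same, and 14 with library totals alone. The log2 Klf4 to Klf5 ratio was 0.60 higher in SI, and 0.26 to 1.02 with 1 library left out. Of the 24 nearest genes 21 stayed with a prior count of 0.5. Depth limits Klf2 most.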

Other observations

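Other cell types in the crypt preparations are given as counts of their marker genes. Of 5 Paneth cell markers 3 were called higher in SI and none higher in COL. Of 6 stem cell markers only Olfm4, a marker of crypt base cells of the small intestine, was called, with 9.74 to 254 CPM in SI and at most 3.50 CPM in COL (log2 fold change 7.24, adjusted p = 0.00354 by edgeR). Of 7 colonocyte markers 4 were called higher in COL and 2 higher in SI. None of 5 enteroendocrine or 5 tuft cell markers was called by edgeR, DESeq2 or limma-voom, and none had an unadjusted p under 0.05. Of 8 epithelial markers 1 was called higher in SI and 2 higher in COL.

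Retnlb, a goblet cell peptide of the colon, was at 21.1 to 116 CPM in COL and at most 0.456 CPM in SI, and Muc2, the main mucin of goblet cells, at 7718 to 16197 CPM and 379 to 988 CPM. Of the myeloid markers 1 of 4 tested was called higher in SI. No marker of B cells (3 tested), fibroblasts (4 tested) or smooth muscle (3 tested) was called by edgeR. Unadjusted p-values under 0.05 numbered 1, 0 and 1 in these lists, DESeq2 called 0, 0 and 1, and limma-voom 1 in each. Their summed levels were 5.22 to 22.7, 0.272 to 5.50 and 2.24 to 12.4 CPM in SI and 1.93 to 8.06, 1.20 to 6.77 and 7.06 to 8.77 CPM in COL.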
